A study of Mus musculus with 2 samples.

Results

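The genes described here are those for the enzymes that make and break down the cyclic nucleotides cAMP and cGMP, together with protein kinase A and the proteins that anchor it or pass the signal on. They were chosen by symbol alone, as every gene of the count table named Pde (with a number and a letter), Adcy, Gucy, Prkar, Prkac, Prkg, Akap or Rapgef (each with its number). The rule found 63 of the 17134 genes in the table. They comprise 10 adenylyl cyclases, 4 guanylyl cyclases, 18 phosphodiesterases, 3 genes that carry a phosphodiesterase name without encoding a catalytic subunit, 6 subunits of protein kinase A, 2 cGMP-dependent kinases, 14 A-kinase anchoring proteins and 6 Rap exchange factors.

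The RNA sequenced was that of tuft cells, rare chemosensory cells of the gut epithelium, taken from small intestines of naive mice by a sort on the surface proteins EpCAM and Siglec-F. The WT library came from Spib+ Villin-cre mice and the Spib_KO library from Spib fl/fl Villin-cre mice, so that cells of both genotypes carried Villin-cre. That transgene expresses Cre recombinase throughout the intestinal epithelium, and the deletion is therefore not limited to tuft cells. The labels give neither the age of the mice, nor how many were pooled, nor which part of Spib is floxed. The product of Spib is Spi-B, an ETS family transcription factor. Each genotype has 1 library, so the difference between them has no replicate check and no p-value, and every value describes these 2 libraries.

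Adenylyl cyclases make cAMP when G protein-coupled receptors activate the stimulatory G protein, and guanylyl cyclases make cGMP when a peptide or nitric oxide binds them. cAMP releases the catalytic subunits of protein kinase A (PKA) from their regulatory subunits and opens the Epac proteins, which activate the small G protein Rap. Phosphodiesterases hydrolyse the cyclic nucleotides, and A-kinase anchoring proteins (AKAPs) hold PKA at particular sites in the cell. In the intestinal epithelium these messengers are best known for control of chloride and fluid secretion.

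Reads assigned to genes came to 17925421 in WT and 17228665 in Spib_KO. Reads of Spib itself numbered 6266 and 48, for a log2 ratio of -6.95. Epcam and Siglecf, the genes of the sort, had log2 ratios of -0.06 and 0.14. All 18 genes of a tuft cell marker list were measured in these libraries, with a median log2 ratio of 0.05. Their ratios ran from -1.09 for Plcb2 to 1.07 for Gng13, 11 above 0 and 7 below. By the rule given next, 1 of them, Plcb2, was lower, where all measured genes had 2.18% lower.

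A gene counted as measured with 5 CPM (its reads per 1000000 reads of the library) or more and 30 reads or more in either library. A difference was called, as higher or lower in Spib_KO, when the whole 95% counting interval of its log2 ratio, Spib_KO over WT, lay beyond a 2-fold difference. Of the 63 genes, 33 were measured and 30 were not. Among the measured genes 1 was lower, the phosphodiesterase gene Pde4d, and 0 were higher. Over all 10707 measured genes 2.18% were lower and 2.33% were higher, so the number of calls in the family, 3.03% lower, was close to that of the whole table. The median log2 ratio of the 33 genes was 0.12, against 0.01 over all measured genes. Of the 33, 24 (72.7%) differed by less than 1.5-fold, where all measured genes had 79.5%. By the point estimate alone, past 2-fold, 2 genes (Gucy1a2 and Pde3b) were higher and 1 lower, where the table has 3.97% and 3.91%. With a bound of 1.5-fold in place of 2-fold, 3 were higher (Pde6d is the third) and 2 lower (Pde2a joins Pde4d), where the table has 5.59% and 5.52%. Without the level filter 6 of the 63 genes were higher and 7 lower, where the table has 3.48% and 4.18%, and apart from Pde4d these genes had at most 57 reads in either library.

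**Figure D1:**
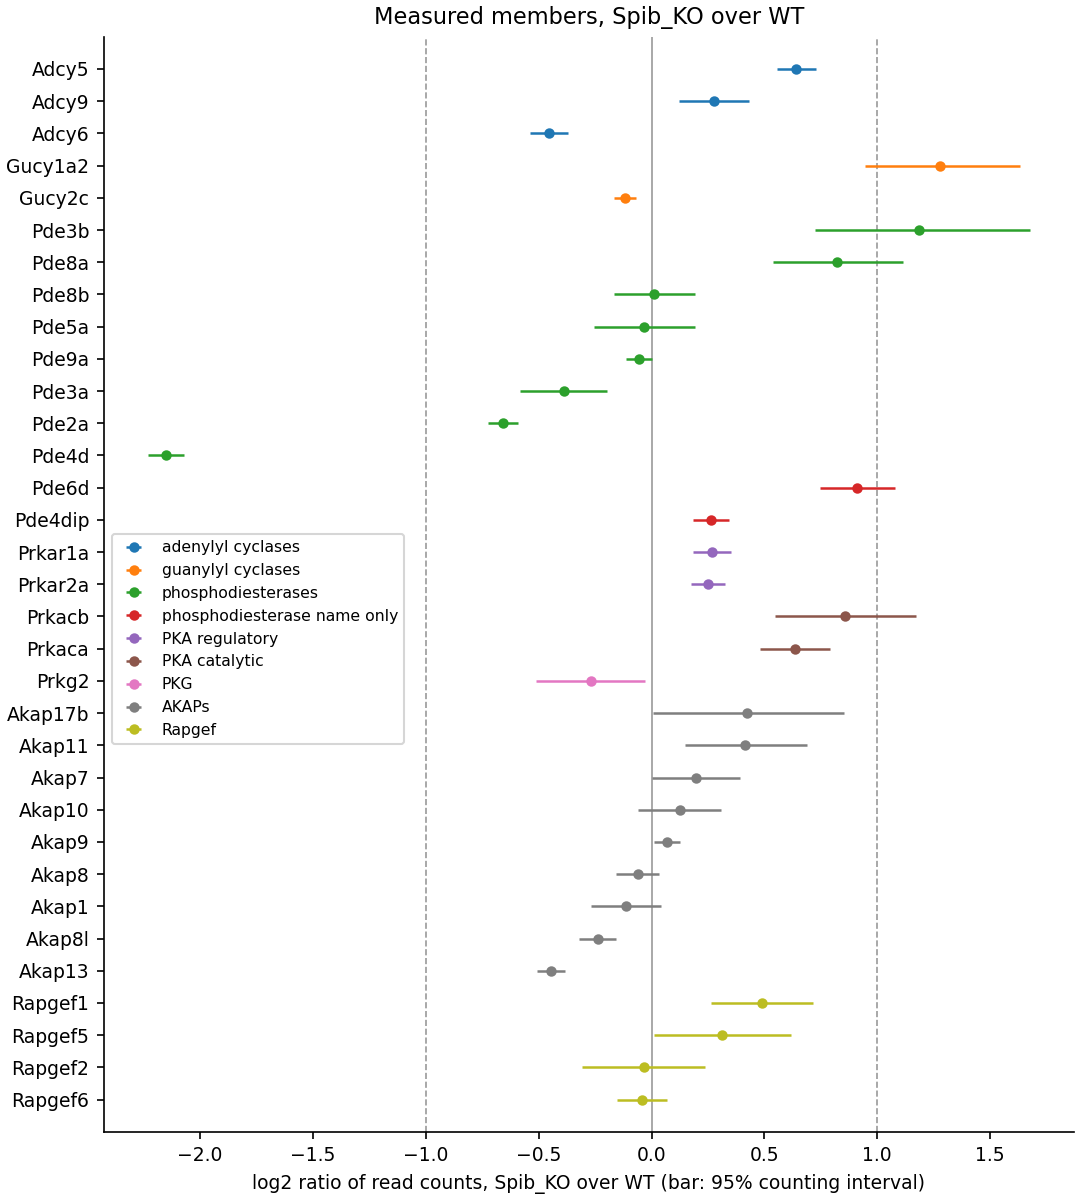
Log2 ratio of read counts, Spib_KO over WT, for the 33 measured genes, grouped and coloured by role; bars are 95% counting intervals, the solid line marks no difference and the dashed lines a 2-fold difference. Pde4d, at -2.15, is the only gene whose whole interval lies beyond a dashed line.

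Pde4d encodes a phosphodiesterase that hydrolyses cAMP and not cGMP. The WT library gave 7337 of its reads, which is 408 CPM with an exact 95% interval of 398 to 417. The Spib_KO library gave 1575, which is 91.8 CPM with an interval of 87.3 to 96.4. The intervals of the 2 libraries do not overlap, but they cover counting error only and rest on the same reads as the call. Pde4d fell 4.44-fold, with a log2 ratio of -2.15 (-2.23 to -2.07), to 22.5% of its WT level (21.3% to 23.8%). On the length-corrected scale of the deposited TPM values it had 61.1 TPM in WT and 12.9 TPM in Spib_KO, ranks 2197 and 6025 among the 17134 genes. It was among the more abundant of the lower genes: of 349 measured genes with a WT level at or above that of Pde4d, 13 were lower, Pde4d included.

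Pde4d spans more than a megabase of chromosome 13, from 108654177 to 109955969 on GRCm38.p6, and is known for many isoforms from separate promoters, which the deposited values add together. The RefSeq promoter table for GRCm38.p6 holds 1 window for it, chr13:108653927-108654226 on the plus strand, at the outermost annotated start of the gene. Because the deleted factor belongs to the ETS family, the windows were searched on both strands for GAGGAA, the core of Spi-B type sites, which includes the GGAA shared by ETS factors. The window of Pde4d, the lower gene, and that of the cyclase gene Gucy1a2, which came nearest to being called higher, are printed 5′ to 3′ with the matches in capitals.
Pde4d: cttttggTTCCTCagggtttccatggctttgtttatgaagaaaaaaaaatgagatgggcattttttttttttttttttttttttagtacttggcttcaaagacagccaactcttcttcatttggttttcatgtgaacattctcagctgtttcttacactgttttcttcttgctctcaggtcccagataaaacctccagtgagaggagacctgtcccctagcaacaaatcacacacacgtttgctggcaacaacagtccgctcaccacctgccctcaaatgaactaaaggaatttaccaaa
Gucy1a2: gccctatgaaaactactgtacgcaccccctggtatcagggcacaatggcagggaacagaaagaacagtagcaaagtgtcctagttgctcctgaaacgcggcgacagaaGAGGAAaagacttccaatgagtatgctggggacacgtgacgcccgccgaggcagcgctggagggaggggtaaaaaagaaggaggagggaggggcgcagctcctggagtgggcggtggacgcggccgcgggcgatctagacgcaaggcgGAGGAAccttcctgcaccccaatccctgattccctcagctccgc
The Pde4d window holds 1 match, on the minus strand (printed as its complement), and the Gucy1a2 window, chr9:3532099-3532398, holds 2 on the plus strand. Matches of this length are common: 9289 of all 32851 windows of 300 bases in the table, 28.3%, hold one. Of 93 windows that belong to 51 of the 63 genes, 25 hold one, which is 26.9%. A match describes letters in a window and not a bound site.

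Markers of cell types other than tuft cells also differed between the libraries. Beside the counts below, all measured genes had 2.18% lower and 2.33% higher. Among 12 T cell and intraepithelial lymphocyte markers there were 5 measured and 4 lower genes. The lower genes, Gzma, Itgae, Cd7 and Ccl5, were measured through WT alone. In Spib_KO they had 1.28, 0.93, 0.93 and 0.76 CPM, short of the minimum, so the filter shaped this count. The T cell list summed to 59.1 CPM in WT and 14.3 CPM in Spib_KO. Cd3d had 20 reads in WT and 0 in Spib_KO, and Cd4 had 1 and 0. Lck, with 80 and 135 reads, was the 1 measured marker of the list with a ratio above 0. Of 9 myeloid markers 3 were measured and 1 was lower (32.5 and 21.5 CPM summed), with Csf1r, C1qa and Tyrobp at 0 reads in Spib_KO. Of 9 Paneth cell markers 8 were lower (2555 and 979 CPM summed), and of 8 measured goblet cell markers 3 were lower (2232 and 1391 CPM summed over the list of 9). Among those measured, only Ang4 of the Paneth list and Clca1 of the goblet list had ratios above 0, at 0.75 and 0.68. Of the lower Paneth cell genes, Defa22, Habp2 and Mptx2 were measured through WT alone. Of 8 measured enteroendocrine markers 5 were lower and 1 higher, while the list of 12 summed to 545 and 575 CPM. Most of both sums came from Sct, at 404 and 533 CPM. Sct, with a log2 ratio of 0.40, and Gip, the higher gene, at 1.87, were the measured markers of this list above 0. Ghrl, Gcg and Tph1 dropped to 0 reads from 87, 316 and 123, and Pyy to 0 from 1. The 12 enterocyte markers had 0 calls (17147 and 18745 CPM summed). Fabp1 alone had 6968 and 10611 CPM of those sums. Of the 12, 9 had ratios below 0 and 3 above, with a median of -0.41. The part of these cells in the value of Pde4d was not tested, and in a sorted population fewer cells of a type and less RNA per cell cannot be told apart. B cell, mast cell, stromal and enteric neuron or glia markers were not measured in either library, with sums of at most 6.61 CPM, and of the endothelial markers Tek alone was measured, at 37.6 and 44.3 CPM.

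The other cAMP-specific phosphodiesterases stood at lower levels than Pde4d in WT. The rest of the Pde4 subfamily was nearly silent: Pde4b had 85 and 66 reads in WT and Spib_KO, Pde4a 12 and 1, and Pde4c 3 and 0, and together the 3 genes came to 1.85 and 1.23 TPM. Pde8b, a phosphodiesterase with high affinity for cAMP, had 28.9 and 29.1 CPM, for a log2 ratio of 0.01 (-0.17 to 0.19). Its relative Pde8a had 8.89 and 15.7 CPM, a ratio of 0.82 (0.54 to 1.11), short of the rule. Pde7a had 35 and 73 reads and Pde7b 14 and 0, too few to count as measured. Neither of the Pde8 genes passed the rule in either direction, and the intervals of Pde8b in the 2 libraries overlap.

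Among phosphodiesterases that take both nucleotides, Pde2a, whose enzyme is stimulated by cGMP, was the most abundant, with 84.5 TPM in WT and 53.1 TPM in Spib_KO. In reads it had 259 CPM (252 to 266) and 164 CPM (158 to 170), a log2 ratio of -0.66 (-0.73 to -0.59), or 63.4% of the WT level, and was not called. Pde3a and Pde3b, whose enzymes are inhibited by cGMP, differed in direction: Pde3a had 534 and 389 reads, a ratio of -0.39 (-0.58 to -0.20), and Pde3b 56 and 122 reads, a ratio of 1.18 (0.72 to 1.68). The interval of Pde3b reaches inside a 2-fold difference, and it rests on few reads in WT. The other 4 genes of the class were not measured: Pde1b, activated by calcium and calmodulin, had 45 and 67 reads, Pde11a 45 and 46, Pde10a 0 and 14, and Pde1c 1 and 5. Of the exons of Pde2a in the GENCODE M21 annotation, 64.3% of bases are shared with the model Gm45837 on the same strand. That model has no entry under this name in the count table, and reads of the shared bases cannot be told apart by gene.

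The cGMP-specific enzymes were led by Pde9a, which had the highest TPM of all 63 genes in both libraries, 201 TPM in WT and 193 TPM in Spib_KO. Its reads came to 275 and 265 CPM, a log2 ratio of -0.05 (-0.11 to 0.00). Pde5a, the enzyme inhibited by sildenafil, had 19.0 and 18.6 CPM, a ratio of -0.03 (-0.26 to 0.19). The intervals of these 2 genes exclude differences of 1.5-fold by counting error, though library-to-library variation is not known here. Pde6a, a photoreceptor enzyme subunit, had 4 and 17 reads.

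Summed over the 18 phosphodiesterases, the level was 372 TPM in WT and 286 TPM in Spib_KO. Without Pde4d the sums were 311 and 273 TPM. The cAMP-specific class went from 75.8 to 29.5 TPM, the class that takes both nucleotides from 90.8 to 60.1 TPM and the cGMP-specific class from 205 to 197 TPM. As a share of all phosphodiesterase transcripts, Pde4d made up 16.4% in WT and 4.51% in Spib_KO, Pde2a 22.7% and 18.6%, and Pde9a 54.2% and 67.4%. Within the cAMP-specific class Pde4d held 80.6% in WT and 43.7% in Spib_KO, where Pde8b followed with 31.9% and Pde8a with 17.0%. These sums are of transcripts and say nothing of enzyme activity.

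**Figure D2:**
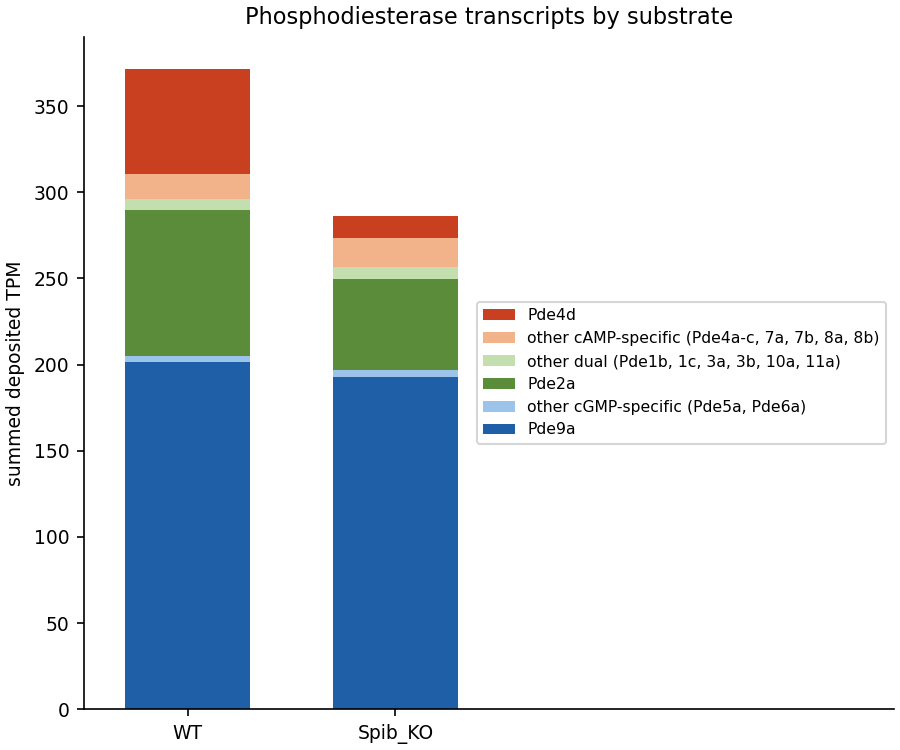
Summed deposited TPM of the 18 phosphodiesterase genes in the WT and Spib_KO libraries, stacked by substrate class, with Pde4d, Pde2a and Pde9a shown on their own. Pde4d takes 61.1 TPM of the WT bar and 12.9 TPM of the Spib_KO bar, while Pde9a takes 201 and 193 TPM.

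The 3 genes with a phosphodiesterase name only were not called. Pde6d encodes a carrier of prenylated proteins. It had 26.4 and 49.6 CPM, for a log2 ratio of 0.91 (0.75 to 1.08), below the rule. Pde4dip, which encodes the centrosome and Golgi protein myomegalin, had 130 and 156 CPM, a ratio of 0.26 (0.18 to 0.34). Pde6g, an inhibitory subunit of the photoreceptor enzyme, had 0 and 13 reads.

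Of the adenylyl cyclases, Adcy6, Adcy5 and Adcy9 were measured, and none was called. Adcy5 and Adcy6 encode closely related cyclases that are inhibited by calcium and by inhibitory G proteins. Adcy6 had 153 CPM in WT (147 to 159) and 112 CPM in Spib_KO (107 to 117), a log2 ratio of -0.45 (-0.54 to -0.37). Adcy5 had 102 CPM (97.7 to 107) and 160 CPM (154 to 166), a ratio of 0.64 (0.56 to 0.73). The order of the pair on the TPM scale was therefore exchanged: Adcy5 stood at 26.2 TPM and Adcy6 at 33.3 TPM in WT, and at 42.2 and 23.9 TPM in Spib_KO, which moves their ratio from 0.79 to 1.77. Adcy9, a widely expressed cyclase, had 35.8 and 43.4 CPM, a ratio of 0.28. Summed over all 10 cyclases the level was 68.8 TPM in WT and 77.0 TPM in Spib_KO. In the GENCODE annotation antisense models cover 8.92% of the exon bases of Adcy6 and 5.82% of Pde3a, 1 covers part of Pde8b, and 2 more cover 4.44% and 3.90% of Pde9a. The libraries do not keep strand, so reads of such overlaps cannot be told apart.

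The other 7 adenylyl cyclases were not measured. Adcy3, the cyclase of olfactory neurons, had 47 and 0 reads. Its counting interval begins at 11.7-fold lower, and its WT level was 14.9-fold above a floor of 3 counts in Spib_KO. Adcy7, a cyclase of blood cells, had 17 reads and 1, a log2 ratio of -3.49 (-9.40 to -1.34). Adcy2 went the other way, with 12 and 57 reads. Adcy8 had 75 and 82 reads, Adcy4 19 and 26, and Adcy1 and Adcy10 at most 7.

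Gucy2c encodes the guanylyl cyclase receptor of the gut peptides guanylin and uroguanylin and of bacterial heat-stable enterotoxin. It held nearly all guanylyl cyclase transcripts, 99.2% in WT and 98.3% in Spib_KO on the TPM scale. It had 147 TPM in WT and 134 TPM in Spib_KO, second among the 63 genes to Pde9a in WT and in Spib_KO. In reads it had 432 and 398 CPM, for a log2 ratio of -0.12 (-0.16 to -0.07). Gucy1a2, a subunit of the soluble cyclase that nitric oxide activates, had 103 and 239 reads, or 5.72 CPM (4.67 to 6.94) and 13.9 CPM (12.2 to 15.8). Its ratio of 1.28 (0.94 to 1.63) was past 2-fold as a point estimate, as was that of Pde3b, while both intervals reach inside it. No Gucy gene for a beta subunit, with which it pairs, was in the count table. Gucy2e had 7 and 0 reads and Gucy2f 3 and 6.

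All 4 measured subunits of PKA had log2 ratios above 0, and none was called. The catalytic subunit genes Prkaca and Prkacb had 31.4 and 7.56 CPM in WT and 48.8 and 13.7 CPM in Spib_KO. Their ratios were 0.64 (0.48 to 0.79) and 0.86 (0.55 to 1.17). The regulatory subunit genes had smaller differences: Prkar1a, of type I PKA, had 119 and 143 CPM, a ratio of 0.27 (0.18 to 0.35), and Prkar2a, of type II PKA, had 146 and 174 CPM, a ratio of 0.25 (0.17 to 0.33). On the TPM scale the regulatory genes summed to 83.9 and 101 TPM and the catalytic genes to 21.9 and 34.0 TPM, so that regulatory over catalytic transcripts went from 3.84 to 2.96. The remaining regulatory genes were low in both libraries, Prkar2b with 6 and 39 reads and Prkar1b with 1 and 4. Prkg2, the membrane-bound cGMP-dependent kinase known in the gut for acting on the chloride channel CFTR, had 325 and 257 reads, a ratio of -0.27 (-0.51 to -0.03), and Prkg1 had at most 2 reads.

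The palindromic cAMP response element TGACGTCA, bound by the PKA target CREB, was searched in the same promoter windows on both strands. It lies in 588 of the 32851 windows, or 1.79%, and in 2 of the 93 windows of the 63 genes. Those 2 windows overlap and belong to Prkar1a. One of them, chr11:109650612-109650911 on the plus strand of GRCm38.p6, is printed with the element in capitals, since it places the element at a gene of PKA itself.
Prkar1a: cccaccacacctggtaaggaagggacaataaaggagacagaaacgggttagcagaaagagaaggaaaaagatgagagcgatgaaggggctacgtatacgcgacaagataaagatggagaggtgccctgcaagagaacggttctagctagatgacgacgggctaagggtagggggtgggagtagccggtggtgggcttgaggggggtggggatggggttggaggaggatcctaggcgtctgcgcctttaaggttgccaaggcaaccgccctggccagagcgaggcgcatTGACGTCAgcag
Prkar1a was measured in both libraries and not called. The RefSeq table holds 6 windows for this gene.

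Of 14 AKAP genes 9 were measured and none was called. All 9 differed by less than 1.5-fold, as did 79.5% of all measured genes, and the median log2 ratio of the 9 was 0.07. The most abundant per length was Akap8l, which encodes a nuclear protein, with 108 TPM in WT and 89.3 TPM in Spib_KO and a read-count ratio of -0.24 (-0.32 to -0.16). Its neighbour on chromosome 17 and close relative Akap8 had 37.3 and 35.4 TPM, a ratio of -0.06. Akap9, a large scaffold of the centrosome and Golgi, had the same number of reads, 4862, in each library, a ratio of 0.07. Akap13 had the lowest ratio of the 9, at -0.44 (-0.51 to -0.38), from 271 and 199 CPM. The mitochondrial anchor Akap1 had 720 and 635 reads, the membrane anchor Akap7 had 420 and 459 and Akap10 had 480 and 499, with ratios of -0.11, 0.20 and 0.12. Akap11 and Akap17b were lowest in abundance, at 11.4 and 4.72 CPM in WT, with ratios of 0.42 and 0.43. Of the 5 that were not measured, Akap12 had 9 and 45 reads, Akap6 20 and 37, Akap2 24 and 1, and Akap3 and Akap5 each 11 and 0.

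Of 6 Rap exchange factors 4 were measured, and all 4 differed by less than 1.5-fold, as did 79.5% of all measured genes. Of the Epac genes, which encode the cAMP-binding members, neither was measured: Rapgef4 had 24 and 22 reads and Rapgef3 0 and 11. Rapgef6 was the most abundant, with 77.6 and 75.3 CPM, a log2 ratio of -0.04 (-0.15 to 0.07). Rapgef1, another exchange factor for Rap, had 15.9 and 22.4 CPM, a ratio of 0.49 (0.26 to 0.71). Rapgef5 and Rapgef2 had ratios of 0.31 and -0.03.

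**Figure D3:**
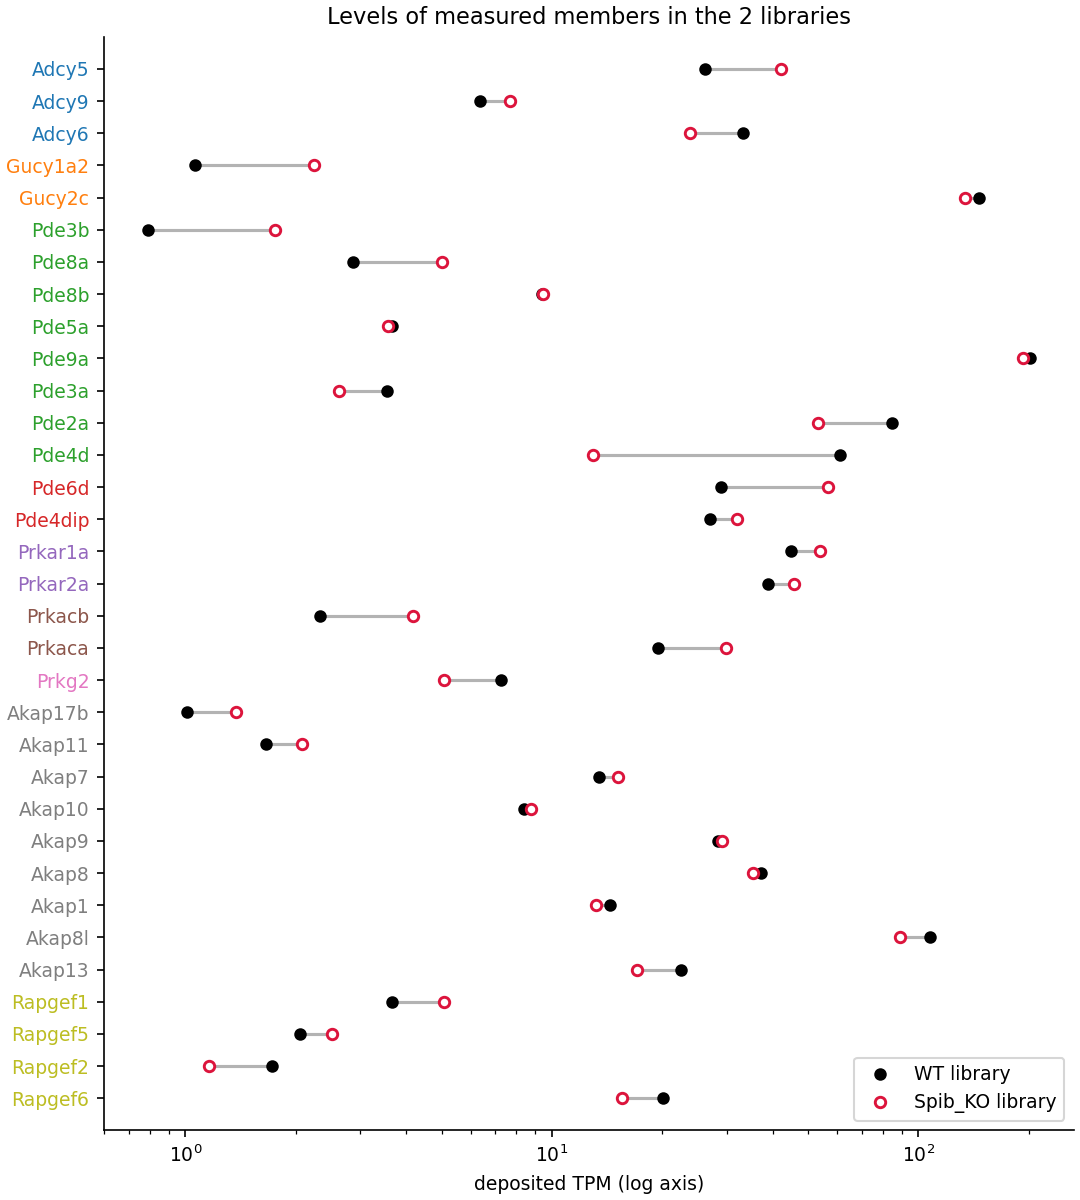
Deposited TPM of the 33 measured genes in the WT library (filled black) and the Spib_KO library (open red) on a log axis, in the order and name colours of the plot of log2 ratios. Pde9a and Gucy2c are highest in both libraries, and the Pde4d pair, 61.1 and 12.9 TPM, is the widest apart.

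**Figure D4:**
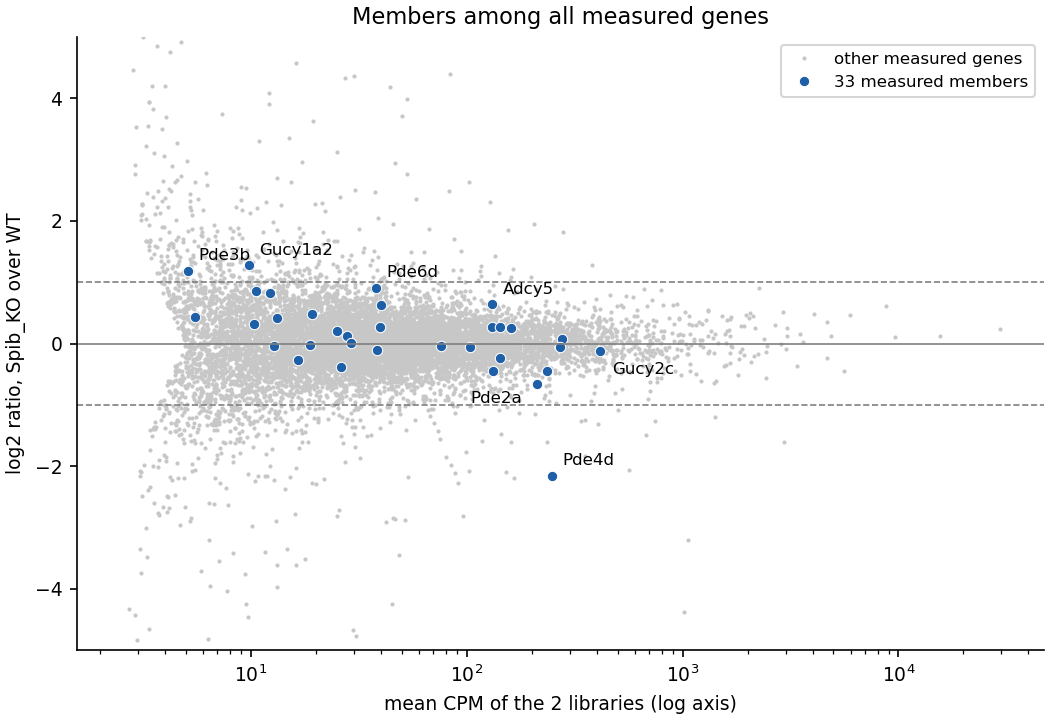
Log2 ratio, Spib_KO over WT, against the mean CPM of the 2 libraries (log axis) for all measured genes (grey) and the 33 measured genes of the family (blue), with dashed lines at a 2-fold difference. Pde4d lies at -2.15 apart from the other 32, which range from -0.66 for Pde2a to 1.28 for Gucy1a2; 40 genes beyond a log2 ratio of 5 are outside the frame.

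Genes that act before and after these enzymes were counted from lists of 141 genes, of which 127 were in the table and 74 were measured. Of the 74, 2 were higher and 7 lower, where the whole table gives 2.33% and 2.18%, and their median log2 ratio was -0.07. The lists were chosen with earlier results of these data known, so their counts of calls are descriptions and test nothing. Some called genes passed the level filter only through the library where they were high. Gnai1 was measured through Spib_KO alone, and Map2, Nos2, Nr4a2, Pck1 and Sst through WT alone. Of 9 measured genes for G protein subunits on adenylyl cyclase, with Ric8a and Ric8b counted among them, 1 was higher and 8 had ratios above 0. Gnat3, also a tuft cell marker, was below 0, at -0.73 (-0.92 to -0.54). Ric8a and Ric8b encode no G protein subunit. The higher gene was Gnai1, which encodes an inhibitory alpha subunit. It rose 9.84-fold, from 36 reads to 342, with a log2 ratio of 3.30 (2.82 to 3.85). The more abundant inhibitory genes Gnai2 and Gnai3 had 287 and 127 CPM in WT and ratios of 0.11 and 0.21, while the stimulatory gene Gnas had 233 and 344 CPM, a ratio of 0.56 (0.50 to 0.62). By mean TPM of the 2 libraries Gng13, Gnas and Gnb1 were the most abundant of the list per length, while in WT alone Gnai2, at 189 TPM, stood just above Gnb1, at 186 TPM. The ratios of Gng13 and Gnb1 were 1.07 (0.96 to 1.18) and 0.59.

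Receptors that signal through cAMP had 0 calls among 5 measured. Ffar3, a receptor for short-chain fatty acids, had 267 and 337 CPM, for a log2 ratio of 0.33. Sucnr1, the succinate receptor of tuft cells, had 35.3 and 75.6 CPM, a ratio of 1.10 (0.96 to 1.24), just inside the bound. Vipr1, a receptor for vasoactive intestinal peptide, had 1186 and 772 reads, a ratio of -0.55. Of the Gucy2c ligands, Guca2b (uroguanylin) had 264 and 194 CPM and Guca2a (guanylin) 96.1 and 84.4 CPM, with ratios of -0.44 and -0.19. The nitric oxide synthase gene Nos2 fell from 92 reads to 0. Its counting interval begins at 23.3-fold lower, and its WT level was 29.2-fold above the floor of 3 counts.

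Abcc5, which encodes an exporter of cyclic nucleotides, rose 2.30-fold, from 52.1 to 120 CPM, with a counting interval of 1.09 to 1.32 in log2. On the deposited TPM scale it had 18.5 and 30.7 TPM, a log2(value + 1) difference of 0.70, which is no longer past 2-fold. The exporter gene Abcg2 had a ratio of -0.12. No gene for a cyclic nucleotide-gated channel or Popeye protein was measured, and the 10 in the table summed to 6.61 and 5.36 CPM.

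Of 12 genes for factors of the cAMP response, all measured, 1 was lower, where the whole table has 2.18%. Sik1, a kinase that is itself induced by cAMP and holds back CREB coactivators, fell to 41.5 CPM from 94.5 CPM in WT, a log2 ratio of -1.19 (-1.32 to -1.06). Creb1, Crem and Creb3 had ratios of 0.02, 0.08 and 0.01, and the coactivator genes Crtc1, Crtc2 and Crtc3 of -0.06, 0.09 and -0.04. Of 13 measured genes known as CREB targets 4 were lower, Sik1 among them, and 0 higher, with a median of -0.28. The whole table has 2.18% lower and 2.33% higher. Nr4a2, a nuclear receptor gene, fell from 282 to 83 reads, a ratio of -1.69 (-2.07 to -1.34). Pck1, an enzyme of glucose synthesis, fell from 380 to 77 reads and the hormone gene Sst from 272 to 24, and Sst is also on the enteroendocrine list, of which 5 measured genes were lower. The abundant targets Fos, Junb and Dusp1 had 1263, 393 and 256 CPM in WT and ratios of -0.06, -0.08 and -0.28, and Nr4a1 had a ratio of 0.52.

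Other proteins that can anchor PKA had 2 of 12 measured genes lower, where the whole table has 2.18%. Map2, a microtubule-associated protein, went down from 17.6 to 3.90 CPM at a log2 ratio of -2.17 (-2.58 to -1.79), and Nbea, which encodes neurobeachin, from 25.6 to 7.87 CPM at a ratio of -1.70 (-1.99 to -1.42). Ezr, which encodes the brush border anchor ezrin, had 223 and 156 CPM, a ratio of -0.52, and Gskip and Arfgef1 had ratios of 0.41 and 0.12. The PKA inhibitor gene Pkig had 72.2 and 60.2 CPM, a ratio of -0.26, and its list had 0 calls among 3, with ratios of -0.07 for Arpp19 and 0.32 for Prkx. Of 9 measured transporters and partners on which PKA and cGMP-dependent kinase act, 0 were called, and Cftr had 67.5 and 74.9 CPM, a ratio of 0.15. The sodium-proton exchanger gene Slc9a3 had the lowest ratio of that list, -0.95 (-1.11 to -0.79), and its 3 most abundant genes per length, Slc9a3r1, Kcne3 and Slc26a6, had ratios of -0.21, 0.36 and -0.24. Of 8 measured genes of Rap itself and its regulators 0 were called, with ratios of 0.42 for Rap1b, -0.08 for Rap1a and 0.07 for Rap1gap2.

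**Figure D5:**
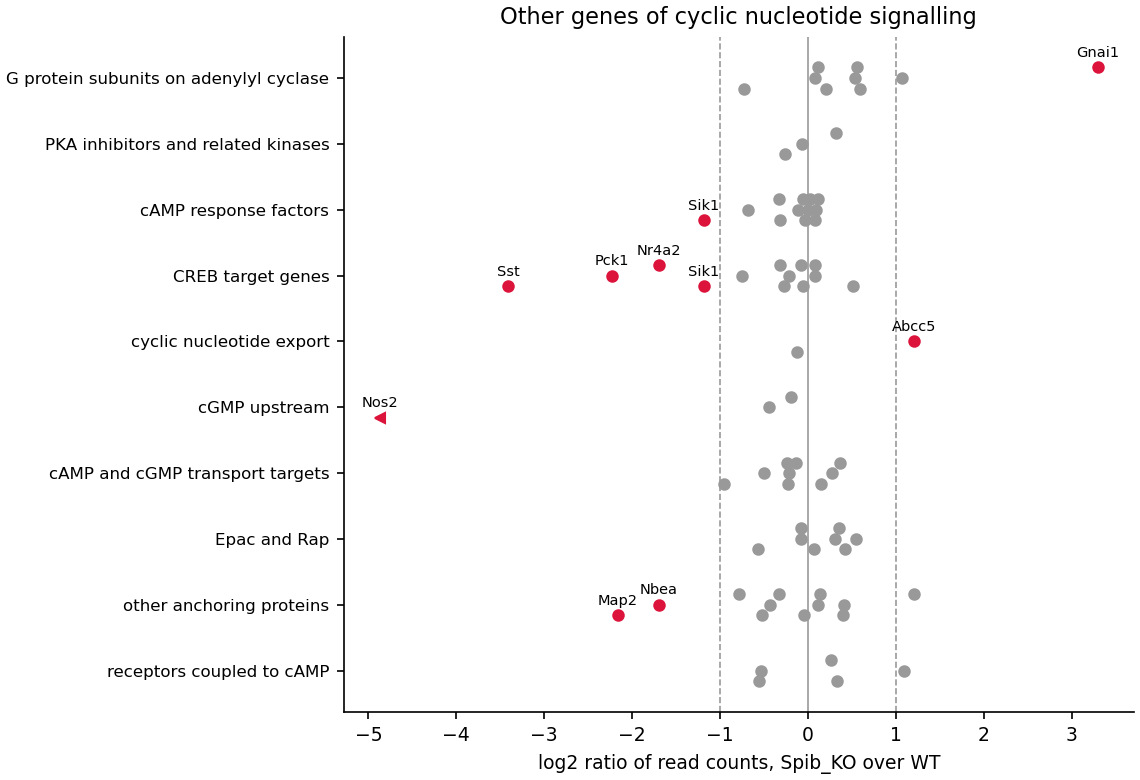
Log2 ratio of read counts, Spib_KO over WT, for the measured genes of 10 lists around the enzymes; called genes are red and named, others grey, and dashed lines mark a 2-fold difference. Gnai1 and Abcc5 are the called genes above the upper line, and Nos2, with 0 reads in Spib_KO, is drawn as a triangle at 29.2-fold lower, its WT level over the floor of 3 counts.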

How the data were processed

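TRIzol extraction, full-length cDNA amplification of the Smart-seq2 kind and transposase libraries are given per the labels' protocols. They name no molecular identifiers and no step that keeps strand. Per the submitters' processing notes, HISAT and Bowtie2 2.2.3 were used with build mm10. For the counting step, program and annotation are not given by these sources. The authors deposited counts, FPKM and TPM of 17134 genes, per the file headers. The deposited counts are expected counts (19.0% of WT and 18.6% of Spib_KO values are not whole) and were rounded. TPM compares levels between genes, and TPM and FPKM serve as alternatives.

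Counts were scaled with TMM (edgeR 4.0.16, R 4.3.3) to effective totals of 17996059 (WT) and 17161039 (Spib_KO). The log2 ratio used a prior count of 0.5. Its 95% interval is the exact conditional binomial (Clopper-Pearson) interval, and that of a CPM value is exact Poisson. Amplified reads are not independent molecules, so intervals and floors cover counting error only. A fold against 0 reads used a floor of 3 counts in that library. The procedure was run on simulated Poisson counts. These have no amplification noise or library-to-library variation, so the simulation does not cover either. Alternatives included DESeq2 1.42.0 size factors. Python 3.11.15, numpy 2.4.6, scipy 1.17.1, pandas 2.3.3 and matplotlib 3.10.9 were used.

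Genes named are all measured members, low members with their reads, and from each other list the called genes and the 3 most abundant per length among those measured. The genes Gnai2, Gnai3, Creb1, Crem, Crtc1, Crtc3, Nr4a1, Cftr and Slc9a3 were added after their values were seen. Members and lists were chosen with earlier results of these data known. Coordinates and promoters are from RefSeq on GRCm38.p6, the assembly mm10 stands for. Promoter windows run from 250 bases before to 50 after a start.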

Additional observations from a re-analysis of the deposited data

How the results depend on the processing

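Pde4d was lower under all 12 alternatives, with log2 ratios of -2.20 to -2.14 on counts and -2.23 to -2.14 on deposited TPM or FPKM. It was the only called gene of the family with total counts, DESeq2 size factors or upper-quartile scaling, a prior count of 5, a CPM minimum of 20, TPM or FPKM as log2(value + 1), and scaling on the tuft markers, which was chosen after seeing the data. The point estimate past 2-fold gave 2 higher (Gucy1a2 and Pde3b), where the whole table has 3.97%. An interval bound of 1.5-fold gave 3 higher, with Pde6d, and 2 lower, with Pde2a, where the table has 5.59% and 5.52%. Without the expression filter 6 were higher and 7 lower, where the table has 3.48% and 4.18%; besides Pde4d these had at most 57 reads in either library. TPM as log2(value + 0.1) without a filter gave 9 higher and 8 lower, where the table has 9.01% and 11.3%. The median log2 ratio of the family was -0.033 with FPKM, against 0.12, which admits 22 genes. Of the signs of 33 log2 ratios, that of Pde8b, at 0.01, was the only one to change.

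For the other pathway genes all alternatives were added after seeing the data. Without the filter 5 were higher and 14 lower of 127, where the table has 3.48% and 4.18%. At a CPM minimum of 20 there were 1 and 3 of 60, where the table has 1.31% and 1.38%. By TPM as log2(value + 0.1) without a filter 13 were higher and 21 lower of 127, where the table has 9.01% and 11.3%. By log2(value + 1) 4 were lower with TPM and with FPKM, where the table has 2.81% and 2.65%, Abcc5 was not called, Sucnr1 was higher with each and Acbd3 with TPM. The point estimate and the 1.5-fold bound each gave 5 higher, where the table has 3.97% and 5.59%. Rules that admit other genes give other counts by construction; beyond that the cause was not tested. No paired analysis was possible because each genotype has 1 library, which also leaves no replicate to leave out.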

Other observations

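The deposited counts and TPM values together imply an effective length for each gene, which can differ between libraries when reads are shared among isoforms. Over 10730 genes with at least 30 reads and 1 TPM in each library, the log2 ratio of that length, Spib_KO over WT and centred on its median, lay between -0.14 and 0.18 for the central 95%. Rapgef2, Rapgef6 and Prkg2 lay above that range, at 0.51, 0.31 and 0.23. For Rapgef6 the read counts gave a log2 ratio of -0.04, while TPM went from 20.1 to 15.6. For Rapgef2 the ratio in counts was -0.03, with 1.72 and 1.16 TPM. Prkg2 had -0.27 in counts, with 7.28 and 5.08 TPM. Pde4d lay inside the range, at 0.07.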
